A study of Mus musculus with 10 samples.

Results

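The genes described here are 37 chaperones, folding enzymes, degradation factors, translocation proteins and stress sensors of the endoplasmic reticulum (ER), the compartment in which secreted and membrane proteins fold. They were chosen by gene name from a list that covers ER folding, ER-associated degradation, entry into the ER and the unfolded protein response, and all 37 names were among the 23479 entries of the table. Of these, 36 had a mean of at least 10 normalized counts over all libraries, as did 12299 entries in all. Derl3, a Derlin of ER-associated degradation, was below that minimum, at 1.05 to 8.32 normalized counts per library.

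RNA sequencing was done on 10 libraries of clone 4T1-T, which was grown from a single cell of the mouse mammary carcinoma line 4T1. The cells carried 1 of 5 short hairpin RNAs introduced by infection. Each hairpin group had 2 libraries, A and B. The hairpins were shSerpine2-2 and shSerpine2-1, against the serine protease inhibitor Serpine2, shSlpi-2 and shSlpi-1, against the secretory leukocyte protease inhibitor Slpi, and shRenilla, against a luciferase that mouse cells lack, as the control. All groups, the control included, come from 1 clone and were infected, so no group is an uninfected parent, and whether a hairpin line was grown from many or few infected cells is not given in the sources used here. The labels do not say that A and B are separate cultures, so p-values measure the spread between libraries, which may be technical.

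Proteins that enter the ER through the Sec61 channel are bound by the chaperone BiP (Hspa5) and its partners, by the lectin chaperones calnexin and calreticulin, and by enzymes that form disulfide bonds. When unfolded protein builds up, the sensors Ern1 (IRE1), Eif2ak3 (PERK) and Atf6 start the unfolded protein response, in which the transcription factors Xbp1 and Atf6 raise the genes of chaperones and of ER-associated degradation, the pathway that returns misfolded proteins to the cytosol for destruction. Secretory cells such as those of the mammary epithelium are known to rely on this machinery.

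The promoters of many of these genes share the ER stress response element, ERSE, which the factors NF-Y and Atf6 are known to bind. It is a CCAAT box and a CCACG part held apart by a spacer, spelled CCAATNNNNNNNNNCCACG, with N any base. ERSE-II has the same parts with the first one reversed, spelled ATTGG, 1 free base and CCACG. RefSeq windows of 250 bases before to 50 bases after the transcription start (GRCm38.p6) were found for 31 of the 37 genes, and both strands were searched. A gene with more than 1 window was counted once, if any of its windows held the motif. An ERSE was present in 10 of these 31 genes (32.3%), against 37 of all 27025 genes in the table (0.137%). An ERSE-II was present in Dnajb11 and Herpud1 (6.45%), against 0.0444% of all genes. Every ERSE also counts as a CCAAT box and as a CCACG part in the counts of those shorter motifs. The CCACG part alone was in 83.9% of the 31 genes against 35.5% of all genes, and the CCAAT box alone in 71.0% against 41.1%. The Xbp1 element TGACGTGG, which overlaps a CCACG part read on the other strand, was in Sec24d and Txndc5 (6.45%), against 0.714% of all genes. A match describes the letters only.

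The matches are shown so that the letters behind these shares can be read. Each is written 5′ to 3′ in the motif's own direction, with the CCAAT or ATTGG part and the CCACG part in capitals and the spacer in lower case. Coordinates are GRCm38.p6.
Hspa5, chr2:34772025-34772043: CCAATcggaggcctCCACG
Hsp90b1, chr10:86705638-86705656: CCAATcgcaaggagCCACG
Hsp90b1, chr10:86705533-86705551: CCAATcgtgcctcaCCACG
Calr, chr8:84847075-84847093: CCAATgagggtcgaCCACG
Canx, chr11:50325800-50325818: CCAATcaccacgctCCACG
Pdia6, chr12:17266491-17266509: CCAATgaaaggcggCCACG
Dnajc3, chr14:118937827-118937845: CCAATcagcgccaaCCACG
Creld2, chr15:88819520-88819538: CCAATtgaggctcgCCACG
Syvn1, chr19:6046532-6046550: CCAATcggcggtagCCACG
Derl3, chr10:75893242-75893260: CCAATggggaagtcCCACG
Ero1lb, chr13:12565682-12565700: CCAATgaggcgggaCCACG
Dnajb11, chr16:22857852-22857862: ATTGGcCCACG
Herpud1, chr8:94386377-94386387: ATTGGgCCACG
The matches of Hspa5, Canx, Pdia6, Dnajc3, Syvn1, Dnajb11, Herpud1 and 1 of the 2 of Hsp90b1 lie on the gene's own strand, and the others on the opposite strand. Measured from the first base of the match on the gene's strand, they start between 212 bases (Hsp90b1) and 44 bases (Syvn1) before the transcription start, except that of Dnajb11, which starts 7 bases after it.

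The stretches of 250 bases before the start are given for Hspa5, the gene of BiP, and for Calr, Canx and Creld2, whose values are described further on. Hspa5 and Creld2 lie on the plus strand, Calr and Canx on the minus strand, each is written 5′ to 3′ on the gene's strand, and the ERSE is in capitals.
Hspa5, chr2:34771840-34772089: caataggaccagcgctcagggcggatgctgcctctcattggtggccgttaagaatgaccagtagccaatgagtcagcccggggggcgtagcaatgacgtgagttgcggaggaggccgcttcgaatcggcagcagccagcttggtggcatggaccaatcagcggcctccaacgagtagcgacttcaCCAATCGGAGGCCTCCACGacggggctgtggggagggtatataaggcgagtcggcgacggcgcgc
Calr, chr8:84846932-84847181: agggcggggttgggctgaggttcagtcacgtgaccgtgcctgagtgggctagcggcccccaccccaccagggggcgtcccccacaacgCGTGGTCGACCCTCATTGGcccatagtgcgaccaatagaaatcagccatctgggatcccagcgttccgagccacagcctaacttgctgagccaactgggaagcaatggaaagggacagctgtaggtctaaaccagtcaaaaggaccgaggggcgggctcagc
Canx, chr11:50325674-50325923: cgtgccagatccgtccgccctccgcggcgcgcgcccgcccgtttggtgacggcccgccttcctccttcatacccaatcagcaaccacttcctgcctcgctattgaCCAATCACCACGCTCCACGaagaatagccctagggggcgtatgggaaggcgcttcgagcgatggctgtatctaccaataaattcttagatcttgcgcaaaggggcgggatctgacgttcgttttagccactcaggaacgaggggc
Creld2, chr15:88819396-88819645: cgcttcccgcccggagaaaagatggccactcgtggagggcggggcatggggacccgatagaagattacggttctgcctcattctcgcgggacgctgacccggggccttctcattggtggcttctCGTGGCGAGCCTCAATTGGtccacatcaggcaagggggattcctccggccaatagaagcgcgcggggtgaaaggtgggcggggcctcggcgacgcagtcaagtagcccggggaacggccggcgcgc
In Canx the CCACG letters occur a second time inside the spacer of its own ERSE, and in Hspa5 3 further CCAAT boxes, read on either strand, lie upstream of the ERSE.

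Library depth was 15877431 to 24026620 recovered reads. Both targets were lower with their own hairpins, as Serpine2 had means of 501 normalized counts with shSerpine2-2, 134 with shSerpine2-1 and 3201 in shRenilla, and Slpi had 68.3 with shSlpi-2, 146 with shSlpi-1 and 1251 in shRenilla. In 3 of the lines the other target was lower too, with Slpi at 370.4 with shSerpine2-1 and Serpine2 at 1642 with shSlpi-2 and 1336 with shSlpi-1. With shSerpine2-2 the mean of Slpi was 1164, and its libraries A and B (1111 and 1218) overlapped those of shRenilla (1189 and 1313). The shSlpi-2 libraries stood apart. Rn45s, the ribosomal RNA precursor, took 6.88% and 6.91% of their reads, against 0.88% to 1.96% in the other libraries, and their chi-square against each other, divided by its degrees of freedom, was 9.66, where the pairs of the other groups had 1.51 to 2.64. Of the markers of mammary epithelial carcinoma, 6 of 6 were expressed, and their summed level, in libraries A and B, was 23808 and 23972 normalized counts with shSerpine2-2, 22628 and 22906 with shSerpine2-1, 27506 and 27748 with shSlpi-2, 24200.2 and 24448 with shSlpi-1 and 20252 and 19825 in shRenilla. All 8 knockdown libraries were thus above shRenilla, and shSlpi-2 was highest. Of leukocyte markers 1 of 6 reached a mean of 10 (Cd68, 130 normalized counts), of fibroblast markers 1 of 6 (Pdgfra, 677), of muscle markers 1 of 3 (Acta1, 20.0), and of endothelial and adipocyte markers 0 of 5 and 0 of 3. The defining genes Ptprc (3.67), Pecam1 (9.70) and Col1a1 (8.45) were below 10. The summed fibroblast markers, nearly all of them Pdgfra, were at 774 and 773 with shSerpine2-2, 626 and 648 with shSerpine2-1, 594 and 462 with shSlpi-2, 593 and 653 with shSlpi-1 and 904 and 887 in shRenilla, so they too differed between the lines, with shRenilla highest and shSlpi-2 B lowest. The sums of the other lists were 112 to 161 for leukocytes, 6.15 to 85.2 for endothelium, 0 to 7.58 for adipocytes and 13.5 to 27.8 for muscle. The part of these marker levels in the ER results was not tested.

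The ER genes took 1.23% to 1.39% of normalized counts. Summed over the 37 genes, the level was 253037 ± 2347 with shSerpine2-2, 230595 ± 1697 with shSerpine2-1, 255519 ± 23244 with shSlpi-2, 225838 ± 3958 with shSlpi-1 and 231541 ± 2430 in shRenilla (normalized counts, SD, n = 2 each). The wide SD of shSlpi-2 came from library A at 271955 and library B at 239083. The ratio of library A to library B over the ER genes had a median of 1.06 in shSlpi-2 (0.633 for Sec61b to 1.21 for Hspa5), where the median over all genes tested was 1.00. Per kilobase of exon, Hsp90b1 (the ER Hsp90, GRP94) and Hspa5 stood highest in shRenilla, at 13707 and 13214 normalized counts per kilobase, ahead of P4hb at 4343, Canx at 4239.7 and Pdia3 at 3913. Of the sensors, Eif2ak3 at 38.5 and Ern1 at 76.5 normalized counts per kilobase were near the low end, whereas Atf6 at 577 was in the middle of the order. Xbp1, at 355, was in the middle too, and Derl3 was lowest at 0.82. The plot of levels per exon length shows the order of all 37.

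**Figure D1:**
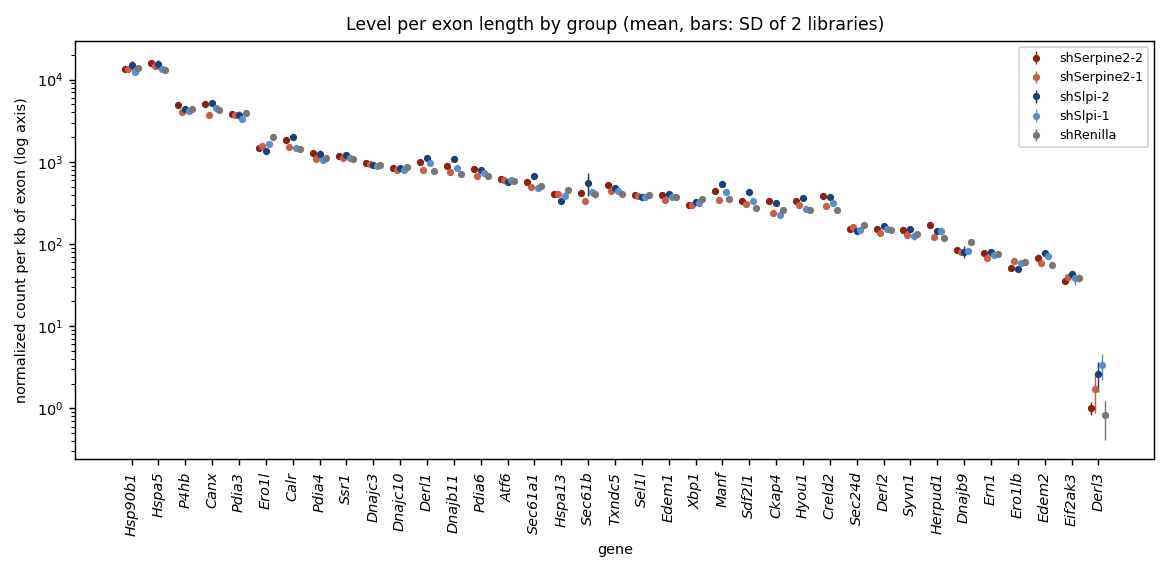
Level of each of the 37 ER genes, as normalized count per kilobase of exon on a log axis, in the 5 groups (points are means, bars the SD of 2 libraries). Hsp90b1 and Hspa5 lie highest in every group, at 13707 and 13214 in shRenilla, and Derl3 lies lowest.

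Whether the knockdown of either inhibitor changed these genes was tested with limma on log2(normalized count + 1), with p-values adjusted by the Benjamini-Hochberg method over all 12299 genes, and a gene is said to have risen or fallen where the adjusted p was under 0.05. Log2 fold changes are on that scale, and a positive one means higher in the knockdown. Over both Serpine2 hairpins, 9 of 36 ER genes rose and 4 fell, against 10.7% risen and 10.8% fallen among all genes tested. Those that rose were Hspa5, Hyou1, Dnajb11, Sdf2l1, Creld2, Calr, Txndc5, Herpud1 and Derl1, and those that fell were Xbp1, Dnajb9, Hspa13 and Ero1l. The median log2 fold change of the 36 was 0.05, against 0.00 over all genes. The changes were small, with a median size of 0.25 among the 13 called and a range of -0.40 to 0.40 over the 36. Calr, Creld2, Ero1l, Hyou1 and Xbp1, 5 of the 13, passed in every fit that left out 1 library. Fewer ER genes, and fewer of all genes, passed without shRenilla A or without shRenilla B. The median log2 fold change of the 36 was then 0.04 and 0.06, against -0.01 and 0.00 over all genes. In these bulk samples, fewer cells of a kind and less RNA per cell cannot be told apart.

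Over both Slpi hairpins, 13 of 36 rose and 6 fell, against 16.5% risen and 18.3% fallen among all genes. Those that rose were Dnajb11, Sdf2l1, Manf, Creld2, Hyou1, Calr, Canx, Pdia6, Txndc5, Herpud1, Derl1, Edem2 and Sec61a1, and those that fell were Xbp1, Dnajb9, Hspa13, Pdia3, Ero1l and Sec24d. Their median log2 fold change was 0.07 over the 36, against -0.01 over all genes. Of these 19 calls, 12 passed in every fit that left out 1 library. A fit without 1 shSlpi-2 library takes the pair with the highest chi-square out of the spread that all groups share. Such fits therefore do not test whether a call rests on shSlpi-2, here or below. Without both shSlpi-2 libraries, which leaves shSlpi-1 against shRenilla, 9 rose and 9 fell, against 12.3% and 14.8% of all genes, and the calls of Calr (adjusted p = 0.156), Hyou1 (adjusted p = 0.509) and Pdia6 (adjusted p = 0.113) ended. Calr and Hyou1 had been among the 12. Sec61a1 lost its call as well and turned sign, at -0.0587 (adjusted p = 0.306). The comparisons with shRenilla share its 2 libraries. With each hairpin line counted as 1 unit, limma called 0 ER genes in either pooled comparison, and at an unadjusted p under 0.05 it had 1 of 36 for Serpine2 and 8 of 36 for Slpi, with 499 and 1281 of all 12299 genes.

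By hairpin line the response was uneven. With shSerpine2-2, 16 rose and 3 fell, against 14.2% and 13.4% of all genes, whereas with shSerpine2-1 1 rose and 4 fell, against 5.09% and 5.38%. With shSlpi-2, 20 rose and 5 fell, against 20.4% and 21.9%, whereas with shSlpi-1 7 rose and 6 fell, against 7.65% and 9.88%. The median log2 fold change of the 36 was 0.15 with shSerpine2-2, -0.02 with shSerpine2-1, 0.18 with shSlpi-2 and -0.01 with shSlpi-1. Of the 36 genes, 17 had their highest group mean with shSlpi-2 and 11 with shSerpine2-2, against 28.0% and 17.1% of all genes, and 7 in shRenilla, against 25.0%. Ero1l fell in all 4 lines, and no ER gene rose in all 4. Dnajb11, Sdf2l1, Manf, Creld2, Hyou1, Herpud1 and Derl1 rose in 3 lines, Dnajb9 and Hspa13 fell in 3, and 8 genes did not pass in any. Ero1l and Derl1 kept all of these line calls in every fit that left out 1 library. In some of those fits Dnajb11, Sdf2l1, Manf, Creld2, Herpud1 and Hspa13 lost their call with shSlpi-1. Calls with shSerpine2-2 were lost for Sdf2l1, Manf and Hspa13. Hyou1 lost its call with shSerpine2-1, Herpud1 also with shSlpi-2, and Dnajb9 in each of its 3 lines. The single-line counts for shSerpine2-1 and shSlpi-1 moved with the libraries in the fit, and the counts over all genes moved the same way. For shSerpine2-1 the count fell without any single library of shRenilla, shSerpine2-1 or shSerpine2-2. It rose without shSlpi-2 A or B. For shSlpi-1 it fell without any single library of shRenilla or shSlpi-1. For shSerpine2-2 it fell without either of its own libraries, as did the count over all genes. With only the compared libraries fitted, shSlpi-2 had 17 (13 risen, 4 fallen), against 15.6% and 16.6% of all genes. In that setting shSlpi-1 had 16 (8 risen, 8 fallen), against 11.1% and 13.6%. With TMM scaling shSlpi-2 had 15 risen and 6 fallen, against 17.2% and 25.8%.

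**Figure D2:**
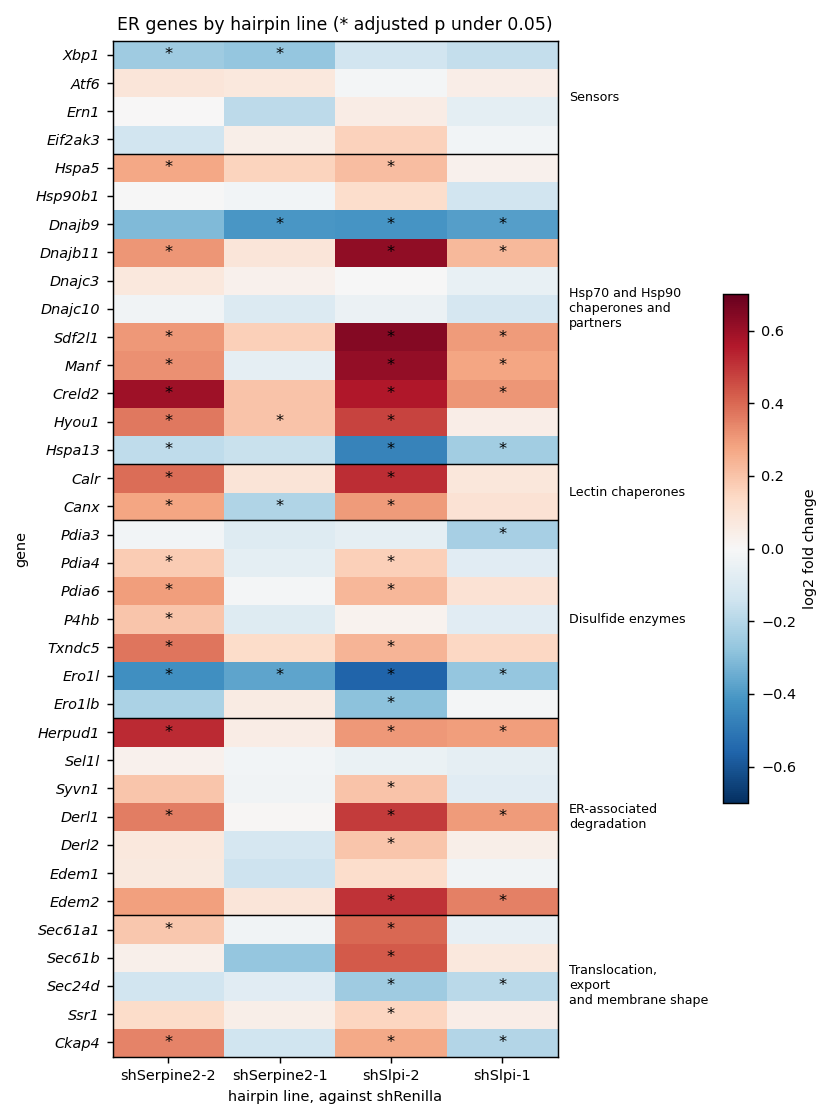
Log2 fold change against shRenilla (colour) of the 36 ER genes tested, by hairpin line and grouped by role, with an asterisk where the limma adjusted p was under 0.05. Ero1l is blue with an asterisk in all 4 columns, while Calr, Canx and Ckap4 are redder with shSerpine2-2 and shSlpi-2 than with the other hairpin of the same target.

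**Figure D3:**
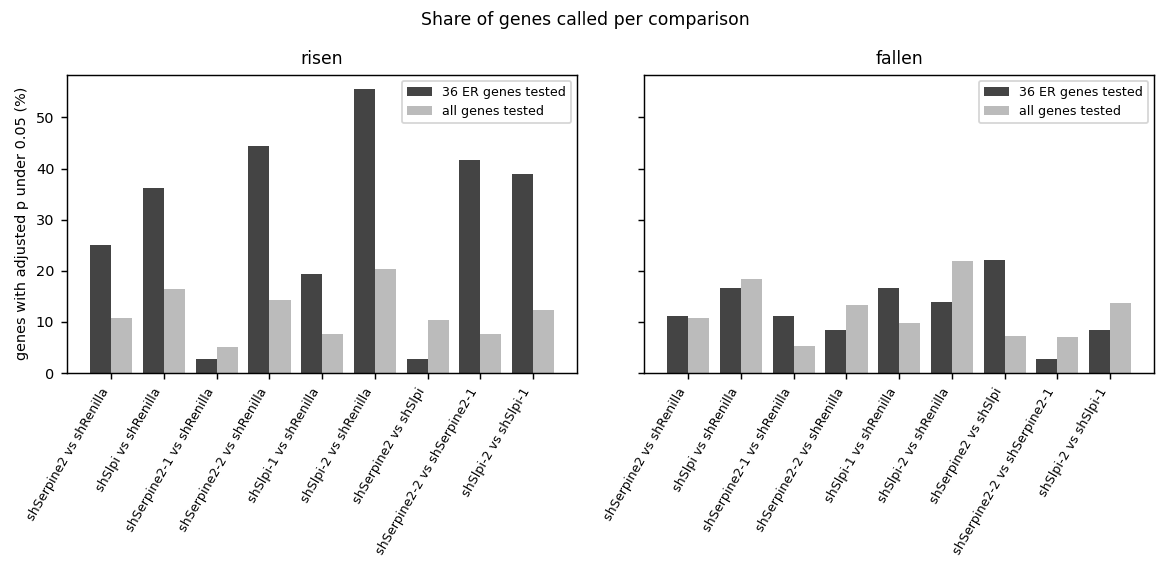
Percent of genes with an adjusted p under 0.05, risen in the left panel and fallen in the right, for the 36 ER genes tested (dark bars) and all 12299 genes tested (light bars) in the 9 comparisons. Dark bars exceed light ones among risen genes in 7 comparisons, by the widest margin with shSlpi-2, where 20 of 36 rose.

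The sensors themselves gave no call. Atf6, Ern1 and Eif2ak3 did not pass in any comparison, with log2 fold changes of -0.18 to 0.16 against shRenilla over the 4 lines. Xbp1, the transcription factor whose RNA is cut and rejoined by Ern1, averaged 969.7 ± 27.8 with shSerpine2-2, 955 ± 19.9 with shSerpine2-1, 1054 ± 49.8 with shSlpi-2, 1026 ± 9.62 with shSlpi-1 and 1154 ± 8.37 in shRenilla (SD, n = 2 each). All 8 knockdown libraries lay below both shRenilla libraries, the nearest at 1089 in shSlpi-2 A against 1148 in shRenilla B. Xbp1 fell over both Serpine2 hairpins (log2 fold change -0.26, SE 0.05, adjusted p = 0.00241). The fall over both Slpi hairpins (log2 fold change -0.15, SE 0.05, adjusted p = 0.0374) was lost without any 1 of 9 libraries, the exception being shSlpi-2 A, with an adjusted p of up to 0.169. Gene counts do not separate the spliced from the unspliced form of Xbp1.

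Among BiP, its Hsp70 and Hsp90 relatives and their partners, 5 of 11 rose and 2 fell in each pooled comparison (45.5% and 18.2%), against 10.7% and 10.8% of all genes for Serpine2 and 16.5% and 18.3% for Slpi, so the share that fell over Slpi hairpins was near that of all genes. Dnajb11, the J-protein ERdj3 that hands unfolded chains to BiP, had 2855 and 2843 with shSerpine2-2, 2372 and 2504 with shSerpine2-1, 3730.0 and 3347 with shSlpi-2, 2636 and 2753 with shSlpi-1 and 2327 and 2272 in shRenilla (normalized counts, libraries A and B). Both libraries of every knockdown line were above both shRenilla libraries, and shSlpi-2 was highest. It rose over both Slpi hairpins (log2 fold change 0.42, SE 0.05, adjusted p = 7.73e-06) and over both Serpine2 hairpins (log2 fold change 0.20, SE 0.05, adjusted p = 0.0099), the second call ending without shRenilla A or shRenilla B (adjusted p up to 0.133). Sdf2l1, an ER protein that works with Dnajb11, had 371 and 372 with shSerpine2-2, 329.7 and 347 with shSerpine2-1, 444 and 498 with shSlpi-2, 377 and 365 with shSlpi-1 and 292 and 311 in shRenilla. The shSlpi-2 libraries were again highest, and every knockdown library lay above shRenilla. Its rise over both Slpi hairpins was 0.47 (SE 0.08, adjusted p = 0.0002), and its call over both Serpine2 hairpins (0.23, SE 0.08, adjusted p = 0.0401) ended without shRenilla A, shRenilla B, shSerpine2-1 A, shSerpine2-1 B, shSerpine2-2 A, shSerpine2-2 B, shSlpi-1 A or shSlpi-1 B (adjusted p up to 0.243).

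Manf, an ER-resident and secreted factor that binds BiP, had 1485 and 1629 with shSerpine2-2, 1145 and 1241 with shSerpine2-1, 1989 and 1837 with shSlpi-2, 1452 and 1574 with shSlpi-1 and 1167 and 1333 in shRenilla. The shSerpine2-1 libraries lay within or below the range of shRenilla, and the other 3 lines above it. Manf rose over both Slpi hairpins (log2 fold change 0.45, SE 0.07, adjusted p = 6.72e-05) and with shSerpine2-2 alone (0.32, SE 0.08, adjusted p = 0.0052), a call that ended without shRenilla A or shSerpine2-2 B (adjusted p up to 0.0941), while its value over both Serpine2 hairpins was 0.13 (SE 0.07, adjusted p = 0.182). Its exons overlap those of Rbm15b on the same strand and of Dcaf1 and a further gene on the opposite strand. Whether counting used strand is not given in the sources used here, and strand would not separate the overlap with Rbm15b. Creld2, an ER protein with EGF-like repeats that binds calcium, had 549.6 and 505 with shSerpine2-2, 409.9 and 392 with shSerpine2-1, 543 and 489 with shSlpi-2, 432 and 432 with shSlpi-1 and 359 and 339 in shRenilla. Every knockdown library was above both shRenilla libraries, with shSerpine2-2 and shSlpi-2 highest. It rose with Serpine2 hairpins (log2 fold change 0.40, SE 0.07, adjusted p = 0.00141) and with Slpi hairpins (log2 fold change 0.43, SE 0.07, adjusted p = 0.000267). Hyou1, the Grp170 protein that drives nucleotide exchange on BiP, had 2452 and 2377 with shSerpine2-2, 2136 and 2166 with shSerpine2-1, 2519.9 and 2670.2 with shSlpi-2, 2005 and 1865 with shSlpi-1 and 1913 and 1829 in shRenilla. With shSlpi-1 the values overlapped those of shRenilla, and in the other 3 lines they were higher. Hyou1 rose over both Serpine2 hairpins (log2 fold change 0.28, SE 0.05, adjusted p = 0.000701) and over both Slpi hairpins (0.26, SE 0.05, adjusted p = 0.00056), the last of these resting on shSlpi-2, since shSlpi-1 alone gave 0.05 (SE 0.06, adjusted p = 0.613).

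Hspa13, a microsomal Hsp70 relative also called Stch, went the other way and had 2776 and 2748 with shSerpine2-2, 2736 and 2882 with shSerpine2-1, 2330.4 and 2189 with shSlpi-2, 2602 and 2678 with shSlpi-1 and 3089 and 3166 in shRenilla. All 8 knockdown libraries were below both shRenilla libraries, and shSlpi-2 was lowest. It fell over both Slpi hairpins (log2 fold change -0.36, SE 0.05, adjusted p = 1.7e-05) and over both Serpine2 hairpins (-0.17, SE 0.05, adjusted p = 0.0146), the second call ending without shRenilla A, shRenilla B, shSerpine2-1 A or shSerpine2-2 B (adjusted p up to 0.162). Dnajb9, the J-protein ERdj4 that binds misfolded proteins and represses Ern1, averaged 218 ± 4.3 with shSerpine2-2, 204 ± 9.3 with shSerpine2-1, 205 ± 34.2 with shSlpi-2, 207 ± 3.33 with shSlpi-1 and 271 ± 1.73 in shRenilla (SD, n = 2 each). All 8 knockdown libraries were again below shRenilla. Its fall was -0.36 (SE 0.10, adjusted p = 0.0192) over Serpine2 hairpins, which ended without shRenilla A, shRenilla B, shSerpine2-1 B or shSerpine2-2 B (adjusted p up to 0.151), and -0.40 (SE 0.10, adjusted p = 0.00643) over Slpi hairpins, which ended without shRenilla A or shRenilla B (adjusted p up to 0.0635). Its exons overlap another gene's. Hspa5 itself averaged 67429 ± 348 with shSerpine2-2, 62234 ± 78.2 with shSerpine2-1, 65156 ± 8797 with shSlpi-2, 57036 ± 1126 with shSlpi-1 and 55882 ± 2224 in shRenilla. It rose over Serpine2 hairpins (log2 fold change 0.21, SE 0.06, adjusted p = 0.0162), a call that ended without shRenilla A, shRenilla B, shSerpine2-1 A, shSerpine2-1 B or shSerpine2-2 A (adjusted p up to 0.216), and its value over Slpi hairpins was 0.12 (SE 0.06, adjusted p = 0.119). Hsp90b1, Dnajc3 and Dnajc10 did not pass against shRenilla in any line, at -0.13 to 0.12.

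**Figure D4:**
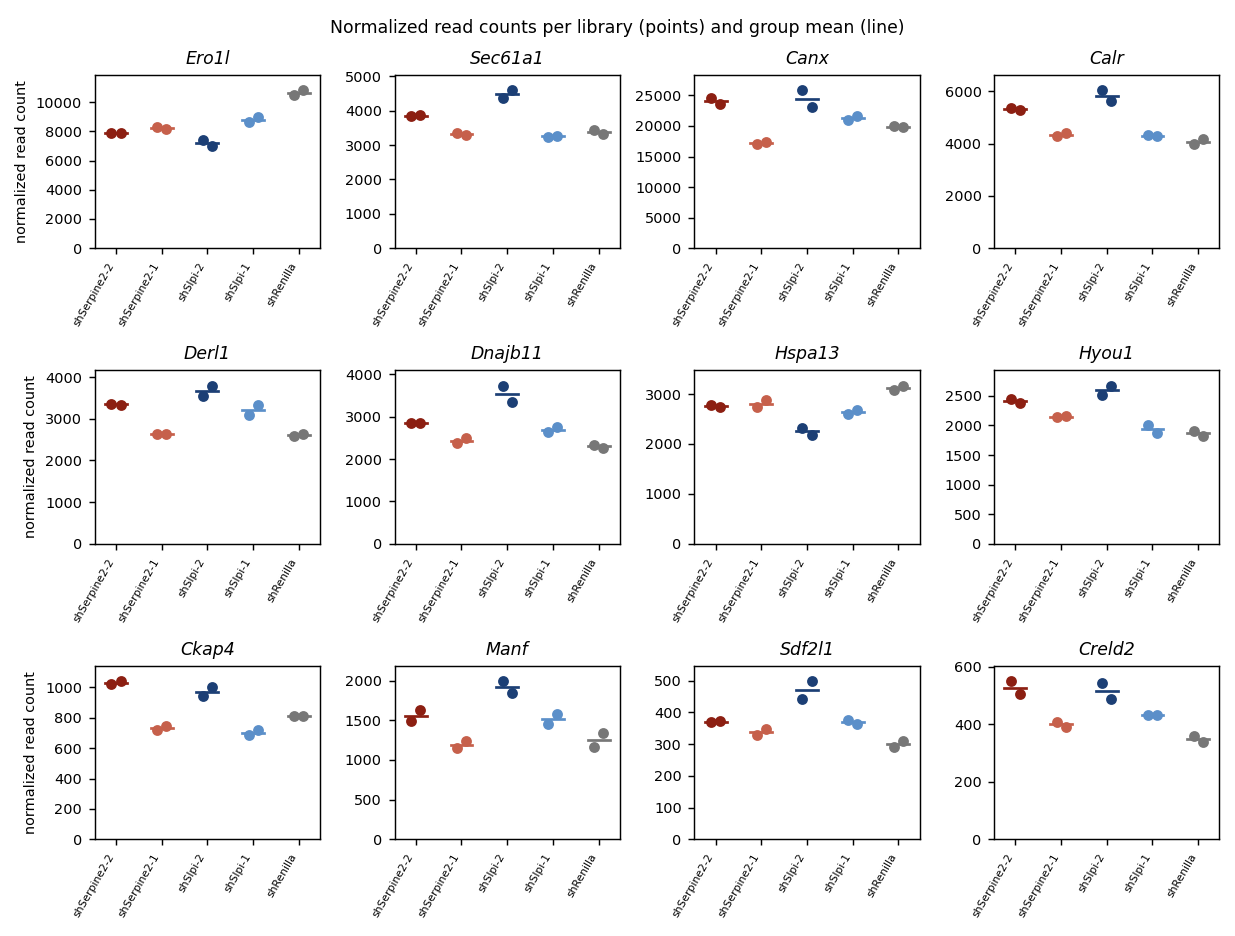
Normalized read counts of the 12 ER genes with the smallest p, per library (points) and as group means (lines), on linear axes from 0 for the 5 groups. Ero1l and Hspa13 are highest in shRenilla, and Dnajb11, Sdf2l1 and Creld2 are lowest there.

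The lectin chaperones hold glycoproteins in the ER until they are folded. Calr, which encodes calreticulin, had 5381 and 5308 with shSerpine2-2, 4286 and 4407 with shSerpine2-1, 6043 and 5624 with shSlpi-2, 4316 and 4289.9 with shSlpi-1 and 3980.3 and 4182 in shRenilla. The libraries of shSerpine2-2 and shSlpi-2 were well above the rest, and those of shSerpine2-1 and shSlpi-1 were above shRenilla by less. Calr rose over both Serpine2 hairpins (log2 fold change 0.24, SE 0.04, adjusted p = 0.00103) and over both Slpi hairpins (log2 fold change 0.30, SE 0.04, adjusted p = 6.32e-05), while shSerpine2-1 and shSlpi-1 alone did not pass, at 0.09 (SE 0.05, adjusted p = 0.27) with shSerpine2-1 and 0.08 (SE 0.05, adjusted p = 0.321) with shSlpi-1. A processed copy of the gene is annotated (Calr-ps), and reads could be split with it. Canx, which encodes calnexin, the membrane-bound lectin, had 24522 and 23604 with shSerpine2-2, 16975 and 17449 with shSerpine2-1, 25835 and 23082 with shSlpi-2, 21054 and 21667 with shSlpi-1 and 19959 and 19834 in shRenilla. It was lowest with shSerpine2-1, below both shRenilla libraries, and highest with shSlpi-2 and shSerpine2-2. Canx rose with shSerpine2-2 (0.27, SE 0.05, adjusted p = 0.00128) and fell with shSerpine2-1 (-0.21, SE 0.05, adjusted p = 0.0183), so its mean over both was 0.03 (adjusted p = 0.658). The fall with shSerpine2-1 ended without shRenilla A, shRenilla B, shSerpine2-1 A or shSerpine2-1 B (adjusted p up to 0.173). Canx rose over both Slpi hairpins (log2 fold change 0.20, SE 0.05, adjusted p = 0.00292).

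Among the disulfide enzymes the called genes ran in both directions. Ero1l, the oxidase that recharges protein disulfide isomerase, had 7878 and 7896 with shSerpine2-2, 8272 and 8173 with shSerpine2-1, 7415 and 7009 with shSlpi-2, 8652 and 8958 with shSlpi-1 and 10461 and 10805 in shRenilla. Every knockdown library was below both shRenilla libraries, and shSlpi-2 was lowest. It fell by 0.40 on the log2 scale over Serpine2 hairpins (SE 0.04, adjusted p = 7.62e-06) and by 0.42 over Slpi hairpins (SE 0.04, adjusted p = 1.03e-06), and both calls passed in every fit that left out 1 library. In single lines it was -0.43 with shSerpine2-2, -0.37 with shSerpine2-1, -0.56 with shSlpi-2 and -0.27 with shSlpi-1. Its paralog Ero1lb fell with shSlpi-2 (-0.29, SE 0.09, adjusted p = 0.0149), which ended without shRenilla A or shSlpi-2 B (adjusted p up to 0.126), and was at -0.22 (SE 0.09, adjusted p = 0.0701) with shSerpine2-2. Txndc5, an isomerase also called ERp46, averaged 2349 ± 89.2 with shSerpine2-2, 1982 ± 142 with shSerpine2-1, 2138 ± 61.5 with shSlpi-2, 1998 ± 7.77 with shSlpi-1 and 1811 ± 59.9 in shRenilla (SD, n = 2 each). It rose over Serpine2 hairpins (0.25, SE 0.05, adjusted p = 0.0024), ending without shRenilla B (adjusted p of 0.0754), and over Slpi hairpins (0.19, SE 0.05, adjusted p = 0.00822), ending without shRenilla B (adjusted p of 0.122). Pdia6 rose over Slpi hairpins (0.17, SE 0.05, adjusted p = 0.0164), ending without shRenilla B or shSlpi-1 B (adjusted p up to 0.196). Pdia3, the isomerase ERp57 that works with both lectins, fell over Slpi hairpins (-0.15, SE 0.05, adjusted p = 0.0343), ending without shRenilla A, shRenilla B, shSerpine2-1 A, shSerpine2-1 B, shSerpine2-2 A, shSerpine2-2 B or shSlpi-1 B (adjusted p up to 0.187). In single lines Pdia3 fell with shSlpi-1 (-0.23, limma adjusted p = 0.0122) and did not pass with shSlpi-2. It was 0.17 higher with shSlpi-2 than with shSlpi-1 (limma adjusted p = 0.0427), a call lost without any 1 of 9 libraries. P4hb, protein disulfide isomerase itself, and Pdia4 rose with shSerpine2-2 (0.19 (SE 0.05, adjusted p = 0.0144) and 0.18 (SE 0.06, adjusted p = 0.0491)) but did not pass in either pooled comparison. The P4hb call ended without shRenilla A, shRenilla B, shSerpine2-2 A or shSerpine2-2 B (adjusted p up to 0.105), and the Pdia4 call without shRenilla A, shRenilla B, shSerpine2-1 A, shSerpine2-1 B, shSerpine2-2 A, shSerpine2-2 B, shSlpi-1 A or shSlpi-1 B (adjusted p up to 0.219).

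Of 7 tested genes of ER-associated degradation, 2 rose over Serpine2 hairpins (28.6%, against 10.7% of all genes) and 3 over Slpi hairpins (42.9%, against 16.5%), and none fell in any comparison with shRenilla. Derl1, a Derlin of the membrane channel through which misfolded proteins leave, had 3358 and 3332 with shSerpine2-2, 2623 and 2625 with shSerpine2-1, 3542 and 3788 with shSlpi-2, 3088 and 3325 with shSlpi-1 and 2586 and 2628 in shRenilla. The shSerpine2-1 libraries lay within the range of shRenilla, and the other 3 lines were above it. Derl1 rose over Slpi hairpins (log2 fold change 0.39, SE 0.05, adjusted p = 6.95e-06) and over Serpine2 hairpins (0.18, SE 0.05, adjusted p = 0.00885), the second call ending without shRenilla A or shRenilla B (adjusted p up to 0.0842). Herpud1, a scaffold of the Syvn1 ubiquitin ligase, averaged 395 ± 6.37 with shSerpine2-2, 285 ± 14 with shSerpine2-1, 339.7 ± 9 with shSlpi-2, 338 ± 35.2 with shSlpi-1 and 275 ± 17.9 in shRenilla. It rose with shSerpine2-2 (0.52, SE 0.10, adjusted p = 0.00109), and its pooled values were 0.29 (SE 0.09, adjusted p = 0.0237) for Serpine2, ending without shRenilla A, shRenilla B, shSerpine2-1 B, shSerpine2-2 A or shSerpine2-2 B (adjusted p up to 0.211), and 0.30 (SE 0.09, adjusted p = 0.0116) for Slpi, ending without shRenilla A (adjusted p of 0.147). Edem2, which trims mannose from glycoproteins bound for degradation, averaged 234 ± 26 with shSerpine2-2, 203 ± 3.53 with shSerpine2-1, 272 ± 20.2 with shSlpi-2, 245 ± 5.48 with shSlpi-1 and 191 ± 9.87 in shRenilla and rose over Slpi hairpins (log2 fold change 0.43, SE 0.10, adjusted p = 0.00262). Sel1l and Edem1 did not pass against shRenilla in any line, at -0.15 to 0.12.

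The genes of entry, export and membrane shape included 2 that turned on the hairpin. Sec61a1, the pore of the translocation channel, had 3853 and 3870.2 with shSerpine2-2, 3355 and 3299.5 with shSerpine2-1, 4371 and 4595 with shSlpi-2, 3248 and 3262 with shSlpi-1 and 3446 and 3335 in shRenilla. The libraries of shSlpi-2 were highest and those of shSerpine2-2 next, while shSlpi-1 lay below both shRenilla libraries. Its rise over Slpi hairpins (log2 fold change 0.17, SE 0.04, adjusted p = 0.00399) joined 0.40 with shSlpi-2 and -0.06 with shSlpi-1, and ended without shRenilla B (adjusted p of 0.0701). Its exons overlap another gene's. Ckap4, the protein Climp-63 that spaces ER sheets, had 1024 and 1039.9 with shSerpine2-2, 721 and 746 with shSerpine2-1, 943 and 1001 with shSlpi-2, 684 and 720.0 with shSlpi-1 and 810.2 and 809 in shRenilla. It was above both shRenilla libraries with shSerpine2-2 and shSlpi-2 and below them with shSerpine2-1 and shSlpi-1. Ckap4 rose with shSerpine2-2 (0.35, SE 0.06, adjusted p = 0.000984) and with shSlpi-2 (0.26, SE 0.06, adjusted p = 0.00363), and its fall with shSlpi-1 (-0.21, SE 0.06, adjusted p = 0.038) ended without shRenilla A, shRenilla B, shSerpine2-1 A, shSerpine2-1 B, shSerpine2-2 A, shSerpine2-2 B, shSlpi-1 A or shSlpi-1 B (adjusted p up to 0.204). Sec24d, a cargo adaptor of the COPII coat, averaged 972 ± 19.8 with shSerpine2-2, 1012 ± 1.52 with shSerpine2-1, 899 ± 21.9 with shSlpi-2, 936 ± 10.1 with shSlpi-1 and 1068 ± 9.57 in shRenilla and fell over Slpi hairpins (log2 fold change -0.22, SE 0.05, adjusted p = 0.0035). Sec61b was at 868 in shSlpi-2 B and 550 in shSlpi-2 A, and its rise with shSlpi-2 (0.43, SE 0.15, adjusted p = 0.0278) ended without shRenilla A, shRenilla B or shSlpi-2 B (adjusted p up to 0.484).

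The hairpins of each target were also set against each other. With shSerpine2-2 relative to shSerpine2-1, 15 ER genes were higher and 1 lower, against 7.69% and 6.98% of all genes, and the median log2 difference of the 36 was 0.19 (0.01 over all genes). Canx (0.48, SE 0.05, adjusted p = 2.7e-05), Ckap4 (0.49, SE 0.06, adjusted p = 0.00016), Calr (0.30, SE 0.05, adjusted p = 0.00103), Derl1 (0.35, SE 0.05, adjusted p = 0.000513) and P4hb (0.28, SE 0.05, adjusted p = 0.00285) passed in every fit that left out 1 library. The gene that was lower was Ero1lb (-0.28, SE 0.09, adjusted p = 0.0409), a call that ended without shRenilla A, shRenilla B, shSerpine2-1 A, shSerpine2-1 B, shSerpine2-2 A or shSerpine2-2 B (adjusted p up to 0.214). The count fell without any single shSerpine2-1 or shSerpine2-2 library, as did the count over all genes. Serpine2 itself averaged 501 normalized counts with shSerpine2-2 and 134 with shSerpine2-1, and Slpi 1164 and 370.4.

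With shSlpi-2 relative to shSlpi-1, 14 were higher and 3 lower, against 12.3% and 13.7% of all genes, and the median log2 difference was 0.15 (0.00 over all genes). Calr (0.44, SE 0.05, adjusted p = 1.53e-05), Ckap4 (0.47, SE 0.06, adjusted p = 9.7e-05), Sec61a1 (0.46, SE 0.05, adjusted p = 7.02e-06), Hyou1 (0.42, SE 0.06, adjusted p = 6.17e-05), Dnajb11 (0.39, SE 0.06, adjusted p = 0.00015), Manf (0.34, SE 0.08, adjusted p = 0.00376) and Ero1l (-0.29, SE 0.05, adjusted p = 0.000312) passed in every fit that left out 1 library. Hspa13 (-0.22, SE 0.05, adjusted p = 0.00491) and Ero1lb (-0.27, SE 0.09, adjusted p = 0.0301) were the others that were lower, with calls that ended without shSlpi-1 B (adjusted p of 0.0557) and without shSlpi-1 B or shSlpi-2 B (adjusted p up to 0.216). The count fell without shSlpi-1 A or shSlpi-1 B, as did the count over all genes. It was 7 (6 higher, 1 lower) when only these 4 libraries were fitted, against 4.69% and 5.49% of all genes. With TMM scaling it was 10 higher and 3 lower, against 8.66% and 18.3% of all genes. The part of the Rn45s share of shSlpi-2 in these differences was not tested.

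**Figure D5:**
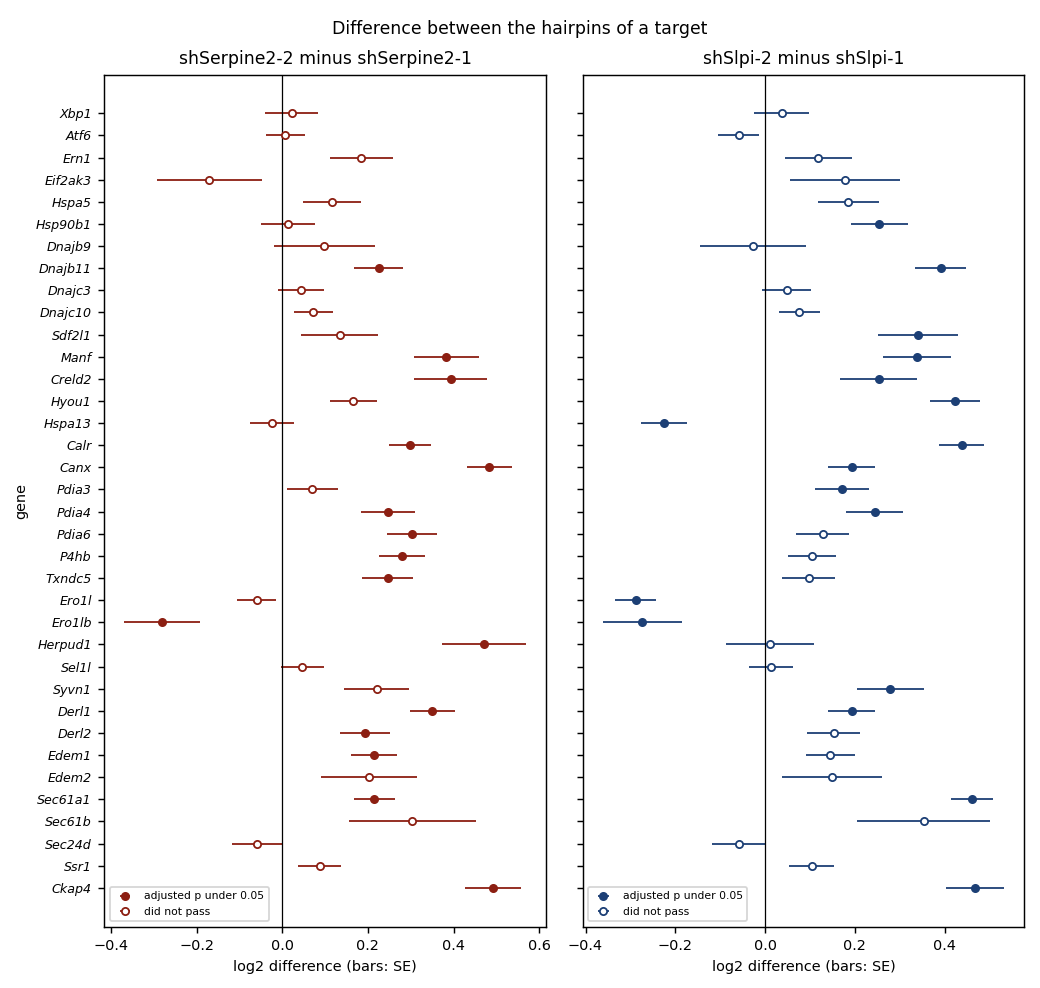
Log2 difference between the hairpins of a target for the 36 ER genes tested, shSerpine2-2 minus shSerpine2-1 on the left and shSlpi-2 minus shSlpi-1 on the right (points, with SE bars; filled where the limma adjusted p was under 0.05). Filled points lie mostly to the right of 0 in both panels, with 15 and 14 genes higher.

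Set directly against the Slpi hairpins, the Serpine2 hairpins gave 1 higher gene (Hspa13) and 8 lower ones, against 10.3% and 7.21% of all genes. The lower ones were Manf (-0.32, SE 0.05, adjusted p = 0.000724), Dnajb11 (-0.23, SE 0.04, adjusted p = 0.00121), Derl1 (-0.21, SE 0.04, adjusted p = 0.0012), Canx (-0.17, SE 0.04, adjusted p = 0.00589), Sdf2l1, Derl2, Edem2 and Sec61b. Hspa13 had 0.19 (SE 0.04, adjusted p = 0.00234). Hspa13, Manf, Dnajb11, Derl1 and Canx passed in every fit that left out 1 library and the other 4 calls did not. The count fell without shSerpine2-1 A, shSerpine2-2 A or shSlpi-1 A and rose without shSlpi-2 A. The count over all genes moved the same way. With TMM scaling the ER genes were 2 higher and 6 lower, against 13.4% and 6.37% of all genes. Without both shSlpi-2 libraries the split was 10 higher and 2 lower, against 10.5% and 6.74% of all genes. Of the 9 calls, 8 ended in that setting, among them Hspa13 (adjusted p = 0.16), Manf (adjusted p = 0.0522), Dnajb11 (adjusted p = 0.626) and Canx (adjusted p = 0.0907), and Calr was then 0.164 (adjusted p = 0.00116), against -0.06 with all libraries. With each hairpin line as 1 unit limma called 0 ER genes, with 1 of 36 and 419 of all genes at an unadjusted p under 0.05.

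The 12 genes with an ERSE or ERSE-II in their window, 11 of them tested, can be placed beside the 19 whose window had neither. Over Serpine2 hairpins 5 of the 11 rose and 0 fell (limma), against 2 risen and 3 fallen of the 19 and 10.7% and 10.8% of all genes, and the median log2 fold changes were 0.14 and -0.04. Over Slpi hairpins 6 of the 11 rose and 0 fell, against 3 risen and 5 fallen and 16.5% and 18.3% of all genes, with medians of 0.17 and 0.03. With shSerpine2-2 the counts were 7 risen and 0 fallen against 5 and 2 (14.2% and 13.4% of all genes), and with shSerpine2-1 they were 0 and 1 against 0 and 3 (5.09% and 5.38%). With shSlpi-2 they were 8 and 1 against 8 and 3 (20.4% and 21.9%), and with shSlpi-1 3 and 0 against 2 and 5 (7.65% and 9.88%). Ero1l, Xbp1, Dnajb9, Pdia3 and Sec24d, which fell over Slpi hairpins, are among the 19, and Hspa13 had no window in the table. No test was made of these counts, since the genes were picked by name and their values were known. Hyou1, Manf, Derl1 and Sec61a1 rose in at least 1 pooled comparison but had no window either.

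Neighbouring genes of the same compartment were counted from further lists, beside shares of all genes of 10.7% risen and 10.8% fallen over Serpine2 hairpins and 16.5% and 18.3% over Slpi hairpins. Of 26 other folding and glycosylation genes, 7 rose and 1 fell over Serpine2 hairpins and 14 rose and 1 fell over Slpi hairpins, with medians of 0.11 and 0.16. By line, 14 rose and 2 fell with shSerpine2-2, 0 and 1 with shSerpine2-1, 18 and 2 with shSlpi-2 and 4 and 1 with shSlpi-1. The shares of all genes in these lines were 14.2% and 13.4%, 5.09% and 5.38%, 20.4% and 21.9%, and 7.65% and 9.88%. Rpn1, a subunit of the oligosaccharyltransferase, was at 0.37 (SE 0.04, adjusted p = 1.01e-05) over Slpi hairpins, with 0.59 for shSlpi-2 and 0.15 for shSlpi-1. Tmx3, a membrane thioredoxin, fell in both pooled comparisons, at -0.31 (SE 0.05, adjusted p = 0.000306) and -0.36 (SE 0.05, adjusted p = 2.76e-05). Of 21 other translocation and signal peptide genes, 4 rose and 1 fell over Serpine2 hairpins and 10 rose and 2 fell over Slpi hairpins. Split by line, 10 rose and 0 fell with shSerpine2-2, 0 and 0 with shSerpine2-1, 13 and 1 with shSlpi-2 and 5 and 1 with shSlpi-1. Sec11c, a catalytic subunit of signal peptidase, rose by 0.70 (SE 0.08, adjusted p = 1.17e-05) over Slpi hairpins, with 0.97 for shSlpi-2 and 0.43 for shSlpi-1. Of 17 other degradation genes, 2 rose (11.8%) and 1 fell over Serpine2 hairpins, and 4 rose (23.5%) and 2 fell (11.8%) over Slpi hairpins. Single lines had 5 risen and 0 fallen (shSerpine2-2), 1 and 1 (shSerpine2-1), 6 and 2 (shSlpi-2) and 0 and 1 (shSlpi-1). Vcp, the ATPase that pulls proteins from the membrane, was at 0.23 (SE 0.05, adjusted p = 0.00298) over Serpine2 hairpins. Of 17 genes of COPII export, 1 rose and 0 fell over Serpine2 hairpins and 3 rose and 4 fell over Slpi hairpins (17.6% and 23.5%, near the shares of all genes), with Sec24b at -0.22 (SE 0.04, adjusted p = 0.000521) and Tmed2 at 0.21 (SE 0.04, adjusted p = 0.0012) over Slpi hairpins. Their line counts were 4 risen and 2 fallen (shSerpine2-2), 0 and 1 (shSerpine2-1), 8 and 4 (shSlpi-2) and 0 and 3 (shSlpi-1).

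Of 14 genes listed around Eif2ak3 and Atf4, 5 rose and 0 fell over Serpine2 hairpins (35.7% risen, against 10.7% of all genes) and 6 rose and 1 fell over Slpi hairpins (42.9% risen, against 16.5%), with medians of 0.23 and 0.22. With shSerpine2-2 7 rose and 0 fell, with shSerpine2-1 2 and 0, with shSlpi-2 6 and 1 and with shSlpi-1 3 and 1. The shares of all genes in these lines are given above. The list is not limited to genes that Atf4 raises. Chac1, which breaks down glutathione, averaged 595 ± 15.4 with shSerpine2-2, 442 ± 7.31 with shSerpine2-1, 369.6 ± 18.3 with shSlpi-2, 349.9 ± 25.5 with shSlpi-1 and 307 ± 42.5 in shRenilla (SD, n = 2 each), a rise of 0.74 (SE 0.09, adjusted p = 3.84e-05) over Serpine2 hairpins. Ppp1r15b, which targets a phosphatase to eIF2, rose in both comparisons, at 0.29 (SE 0.05, adjusted p = 0.00109) and 0.33 (SE 0.05, adjusted p = 0.000118). Of 14 genes around the sensors, 3 rose and 2 fell over Serpine2 hairpins (21.4% and 14.3%) and 4 rose and 3 fell over Slpi hairpins (28.6% and 21.4%), the fallen shares being near the 10.8% and 18.3% of all genes. Line counts for them were 5 risen and 2 fallen (shSerpine2-2), 1 and 1 (shSerpine2-1), 7 and 3 (shSlpi-2) and 3 and 3 (shSlpi-1). Tmbim6, also called BAX inhibitor-1, an ER membrane protein that binds Ern1, rose in both, at 0.35 (SE 0.04, adjusted p = 4.85e-05) and 0.55 (SE 0.04, adjusted p = 7.46e-08), and Eif2s1, the subunit of eIF2 that Eif2ak3 phosphorylates, fell in both, at -0.15 (SE 0.04, adjusted p = 0.0182) and -0.33 (SE 0.04, adjusted p = 2.59e-05).

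Chaperones outside the ER were counted in the same way, beside the same shares of all genes. Of 21 cytosolic heat shock and chaperonin genes, 10 rose and 1 fell over Serpine2 hairpins (47.6% risen) and 9 rose and 2 fell over Slpi hairpins (42.9% risen), with medians of 0.16 and 0.06. Cct3, a chaperonin subunit, was at 0.43 (SE 0.05, adjusted p = 4.44e-05) over Serpine2 hairpins, and Hsph1, a large Hsp70 relative, fell by 0.38 on the log2 scale over Slpi hairpins (SE 0.05, adjusted p = 1.45e-05). Of 14 mitochondrial chaperones and proteases, 5 rose and 0 fell over Serpine2 hairpins (35.7% risen) and 4 rose and 1 fell over Slpi hairpins (28.6% risen), with Hspa9, the mitochondrial Hsp70, at 0.38 (SE 0.05, adjusted p = 9.17e-05) and 0.30 (SE 0.05, adjusted p = 0.000186). These 14 had 6 risen and 0 fallen with shSerpine2-2, 1 and 0 with shSerpine2-1, 4 and 1 with shSlpi-2 and 2 and 0 with shSlpi-1. With shSerpine2-1, 9 of the 21 cytosolic genes rose and 1 fell (42.9% and 4.76%), against 5.09% and 5.38% of all genes. The fallen share was thus near that of all genes. In the same line 1 of the 36 ER genes rose and 4 fell (2.78% and 11.1%). The difference between these counts was not tested. Of the 21, 13 rose and 1 fell with shSerpine2-2, 10 and 1 with shSlpi-2 and 5 and 2 with shSlpi-1. The shares of all genes in those lines are given above.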

How the data were processed

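Total RNA of clone 4T1-T cells was reverse transcribed from 100 ng and sequenced with 76 bp reads, per the labels' protocols. Per the submitters' processing notes, Bowtie2, HTSeq, DESeq and genome build mm10 were used. Nothing in the sources used here gives their versions, the annotation or the use of strand. The deposited table holds log2 values with a floor of 6.733366499, whose form is that of a variance-stabilizing transformation. No label states this. Inverting it gave normalized counts, and 100% of values then came out as whole reads within 0.01 reads. A count of 0 allows up to 3 reads (2.30 to 3.48 normalized counts), for counting error only.

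The planned fit on normalized values was run after this inversion, with limma 3.58.1 in R 4.3.3 (eBayes with a trend) on log2(normalized count + 1), for 12299 genes with a mean of at least 10, as 5 group means over 10 libraries. P-values are two-sided and adjusted by the Benjamini-Hochberg method. All ER genes could be named, and values in every library were given for the 12 with the smallest p among those called in a pooled or a hairpin against hairpin comparison. At most 3 genes were named from each other list. Members and lists were chosen with earlier results of these data known. The limma fit called 2643 genes for Serpine2 and 4281 for Slpi against shRenilla. The planned count tests, edgeR and DESeq2, were run once on the recovered reads and are not reported, because the deposited values are not counts. The alternatives were TMM scaling, no filter, a pseudocount of 0.5, the deposited log2 values, fewer libraries, a replicate block and hairpin lines as units. Positions and exon lengths are those of GENCODE M21 (GRCm38, the assembly of mm10) and promoter windows those of RefSeq (GRCm38.p6). Exons of 11 members overlap another gene, and the calls of these members carry that limit. They are Hsp90b1, Pdia3, Pdia4, Pdia6, Dnajb9, Manf, Syvn1, Derl2, Eif2ak3, Sec61a1 and Txndc5.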

Additional observations from a re-analysis of the deposited data

Results flagged for a closer look

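For 11 comparisons of hairpins, the 2 hairpins of a target moved an ER gene in opposite directions and limma called the difference between them. In 7 of these, shSerpine2-2 lay above shRenilla and shSerpine2-1 below it. The log2 difference was 0.483 for Canx (adjusted p = 2.70e-05), 0.492 for Ckap4 (adjusted p = 1.60e-04), 0.383 for Manf (adjusted p = 0.00326), 0.303 for Pdia6 (adjusted p = 0.00296), 0.28 for P4hb (adjusted p = 0.00285), 0.246 for Pdia4 (adjusted p = 0.0161) and 0.215 for Sec61a1 (adjusted p = 0.00699). Of these, Canx fell with shSerpine2-1 (log2 fold change -0.21, adjusted p = 0.0183), and the other 6 did not pass with that hairpin alone, at -0.14 to -0.01. The differences of Canx, Ckap4 and P4hb passed in every fit that left out 1 library. Those of Pdia4 and Sec61a1 ended without any 1 of the 4 compared libraries (adjusted p up to 0.134 and 0.0809), and those of Manf and Pdia6 without shSerpine2-1 A or shSerpine2-2 B (adjusted p up to 0.0775 and 0.0755).

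In the other 4, shSlpi-2 lay above shRenilla and shSlpi-1 below it. The log2 difference was 0.461 for Sec61a1 (adjusted p = 7.02e-06), 0.468 for Ckap4 (adjusted p = 9.70e-05), 0.279 for Syvn1 (adjusted p = 0.0119) and 0.244 for Pdia4 (adjusted p = 0.00948). Ckap4 fell with shSlpi-1 (log2 fold change -0.21, adjusted p = 0.038), and the other 3 did not pass with that hairpin alone. The differences of Sec61a1 and Ckap4 passed in every fit that left out 1 library, that of Syvn1 ended without shSlpi-1 B (adjusted p of 0.171) and that of Pdia4 without shSlpi-1 A or shSlpi-2 A (adjusted p up to 0.0867). Pdia4, Sec61a1 and Ckap4 appear for both targets. In each of these 11 the difference was tested with limma, and no explanation was tested.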

How the results depend on the processing

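Counts of ER genes called kept within 1.5 times under TMM scaling, a pseudocount of 0.5, the deposited log2 values and the replicate block. With the replicate block the counts were 13 (shSerpine2), 19 (shSlpi), 18 (shSerpine2-2), 5 (shSerpine2-1), 25 (shSlpi-2) and 12 (shSlpi-1) against shRenilla, 16 and 18 between hairpins and 9 for shSerpine2 against shSlpi. Differences between libraries A and B correlated between groups at -0.07 to 0.07 over all genes tested. A correlation over all genes cannot show whether some genes or groups shared a batch, and the labels do not say what the letters mark. For shSerpine2-1 the count of 5 became 2 without the filter, 11 with only the compared libraries and 9 without both shSlpi-2 libraries, and for shSlpi-1 the count of 13 became 8 without the filter. For shSlpi-2 against shSlpi-1 the count of 17 became 7 with only the compared libraries. With hairpin lines as units, limma gave 0, 0 and 0 calls for shSerpine2 and shSlpi against shRenilla and shSerpine2 against shSlpi, with 1, 8 and 1 at an unadjusted p under 0.05. Leaving out 1 library gave 5 to 15 for shSerpine2, 13 to 21 for shSlpi, 12 to 24 for shSerpine2-2, 1 to 9 for shSerpine2-1, 17 to 25 for shSlpi-2, 3 to 18 for shSlpi-1, 6 to 20 and 10 to 22 between the Serpine2 and the Slpi hairpins, and 5 to 15 for shSerpine2 against shSlpi. Counts over all genes moved in these fits too. The setting without both shSlpi-2 libraries was planned for shSlpi against shRenilla and shSerpine2 against shSlpi, and added for 5 other comparisons after seeing the data. Among ER genes called with or without those libraries, signs turned for Ckap4 (-0.205) and Sec61a1 (-0.0587) over Slpi hairpins. In shSerpine2 against shSlpi they turned for Calr (0.164), Ero1l (-0.129), Hsp90b1 (0.123) and Sec61a1 (0.139). The cause was not tested. Without the filter the median of all genes moved to 0.16 for shSlpi and 0.20 for shSlpi-2 against shRenilla. The planned edgeR and DESeq2 tests were run once on the recovered reads and are not reported, since the deposited values are log2 values and not counts. Derl3 was tested only without the filter, where limma gave it 1.40 over Slpi hairpins (SE 0.44, adjusted p = 0.0496) on 1.05 to 8.32 normalized counts per library, and no call in the other 8 comparisons.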
